A study of Mus musculus with 4 samples.

Results

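Neutrophils store their antimicrobial proteins in granules, and 10 genes that encode well-known granule proteins were followed in the transcriptome of alveolar macrophages (AMs), which reside in the airspaces of the lung. They comprised 4 genes of primary granules (Mpo, Elane, Prtn3 and Ctsg), 4 genes of secondary granules (Ltf, Camp, Ngp and Lcn2) and 2 genes of tertiary granules (Mmp8 and Mmp9). Each was taken as the row of the count table that carried its symbol, which gave 10 of 54532 genes. AMs came from the lungs of female wild-type mice, of the BALB/c background and aged 8 to 10 weeks according to the methods for wild-type mice, since the labels give no age. Tumor-free mice gave the 2 control libraries. The 2 tumor libraries came from mice that had received 4T1 cells, a mouse mammary carcinoma line, 2 weeks earlier, by injection into the mammary fat pad according to the methods. No group carried a gene deletion or a transgene. The methods give no markers for the purification of AMs for sequencing. The study describes AMs isolated from such mice for both staining and sequencing, and gives the stained cells as CD45+ CD11b- CD11c+ Siglec-F+. The sources used here do not say whether a library was made from 1 mouse or from pooled mice, so the p-values below measure the spread between these libraries only, which may be technical.

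Granules are filled in sequence while a neutrophil matures in the bone marrow. Primary (azurophil) granules are formed at the promyelocyte stage, when transcripts of myeloperoxidase and the serine proteases are abundant. Secondary (specific) granules follow in myelocytes and metamyelocytes, and tertiary (gelatinase) granules in the latest precursors, after which the proteins are kept while many of the transcripts decline. The transcripts of each granule class therefore serve in many studies as marks of how mature neutrophils or their precursors are. Mmp8 is counted here with the tertiary genes, although its product, neutrophil collagenase, is in many descriptions a protein of the secondary granules.

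Total counts ranged from 16167147 to 19205737 per library, and a value of 3 counts or fewer, 0.153 to 0.190 CPM (counts scaled to a common library size), was treated as the floor. No library stood apart from its group in the values below. The AM identity list (14 genes, such as Chil3, Mrc1, Fabp4 and Marco) was present in all 4 libraries, with a summed level of 17966 and 18036 CPM in the controls against 11965 and 12097 CPM in the tumor libraries. All 14 of its genes were called lower in the tumor libraries, with a median log2 difference of -0.52, and 8 of them turned to positive values when this list itself set the scale (the AM identity scale). In bulk RNA, more cells of a type and more RNA per cell cannot be told apart, which applies to every difference given here.

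Stretches upstream of 5 members are shown because they cover all 3 classes and include the members with the highest level (Ngp) and the least change (Mmp8). RefSeq promoter sequence of build GRCm38.p6 was found for 9 of the 10 members, and the window used was the 250 bases before the annotated start. Each stretch below begins at the first base of this window, ends before the first exon annotated within the window and is written 5′ to 3′ on the strand of the gene, with motif matches in capitals. They are the plus-strand stretches chr10:79886062-79886246 for Elane, chr10:79879417-79879613 for Prtn3, chr9:111019042-111019270 for Ltf, chr9:110419558-110419746 for Ngp and chr9:7558179-7558428 for Mmp8. The Prtn3 stretch precedes its RefSeq start but lies within the gene as the count table gives it, which begins farther upstream.
Elane: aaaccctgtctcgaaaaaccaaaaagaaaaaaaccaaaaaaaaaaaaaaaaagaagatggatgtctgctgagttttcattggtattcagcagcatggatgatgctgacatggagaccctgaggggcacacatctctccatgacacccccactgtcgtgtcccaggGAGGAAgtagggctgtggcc
Prtn3: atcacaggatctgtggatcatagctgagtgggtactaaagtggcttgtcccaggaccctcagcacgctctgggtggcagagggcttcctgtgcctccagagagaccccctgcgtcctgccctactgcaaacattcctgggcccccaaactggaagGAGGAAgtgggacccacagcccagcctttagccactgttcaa
Ltf: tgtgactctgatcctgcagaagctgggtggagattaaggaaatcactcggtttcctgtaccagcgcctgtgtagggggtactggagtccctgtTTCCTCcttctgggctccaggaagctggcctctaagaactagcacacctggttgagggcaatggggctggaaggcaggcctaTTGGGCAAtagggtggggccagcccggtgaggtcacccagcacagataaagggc
Ngp: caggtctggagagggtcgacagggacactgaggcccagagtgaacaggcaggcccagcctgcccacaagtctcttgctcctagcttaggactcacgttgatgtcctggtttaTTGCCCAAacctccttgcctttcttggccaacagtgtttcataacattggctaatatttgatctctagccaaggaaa
Mmp8: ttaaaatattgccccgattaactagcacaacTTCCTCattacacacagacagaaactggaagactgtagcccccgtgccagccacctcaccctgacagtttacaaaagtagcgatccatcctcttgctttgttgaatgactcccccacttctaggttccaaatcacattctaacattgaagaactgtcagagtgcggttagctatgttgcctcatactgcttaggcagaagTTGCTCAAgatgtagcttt

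The motifs searched on both strands were the letters TTGCNNAA, read by C/EBP factors, GAGGAA, read by PU.1, TGTGGT, read by RUNX factors, and CAACTG, read by MYB. These factors are known regulators of granulocyte development. No matches of different motifs overlapped in the windows of the members. GAGGAA occurred in 7 of the 9 member windows and in 23.3% of the 32851 windows of the table. It was present in all 4 primary gene windows, at -85 to -80 from the start in Elane, at -95 to -90 in Prtn3 and in 2 places in Mpo. TTGCNNAA occurred in 4 of the 9 windows, against 9.56% of all windows. Those 4 were Ltf (-75 to -68), Ngp (-138 to -131, and again at -11 to -4 beyond the stretch shown), Lcn2 (-216 to -209) and Mmp8 (-19 to -12), and none was a primary gene. TGTGGT and CAACTG, present in 14.0% and 11.1% of all windows, were each found in 1 member window, that of Ctsg. The window of Camp held none of the 4 motifs. A match of letters is a description of the window and does not show that a factor binds there.

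**Figure D1:**
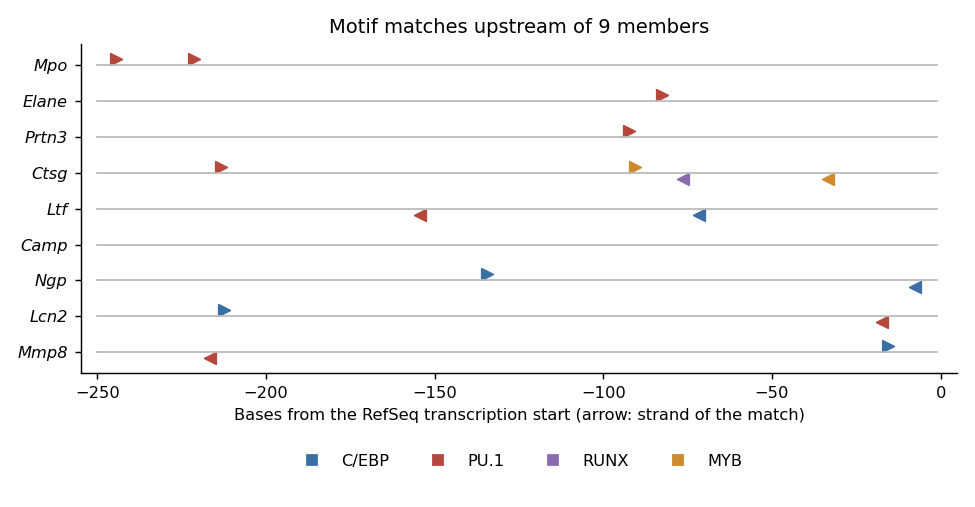
Positions of the 4 searched motifs in the promoter windows of the 9 members with a RefSeq window, by granule class. The x axis is the distance in bases from the annotated start, each triangle is 1 match and its direction gives the strand. PU.1 letters are found in the windows of all 4 primary genes, and C/EBP letters in those of Ltf, Ngp, Lcn2 and Mmp8.

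All 10 members were tested and all 10 were called higher in the tumor libraries with edgeR's quasi-likelihood test at an adjusted p under 0.05. In the background of 14256 tested genes, 29.0% were called higher and 24.8% lower. Of the 10 members, 8 had under 10 counts in both control libraries and passed the filter on low counts through the tumor libraries alone, so that they had to differ to be tested. The remaining 2 were the tertiary genes Mmp8 and Mmp9. The adjusted p-values given below for the 8 therefore add no support beyond their counts. The same holds for genes of the other lists with under 10 counts in both control libraries. Both tumor libraries lay above both control libraries in CPM for all 10 members and for 39.3% of the tested genes. A stricter pattern, both control libraries at 3 counts or fewer and both tumor libraries at 10 times the floor or more, was met by 6 of the 10 members (the 4 primary genes, Camp and Ngp) and by 0.435% of the 54532 genes in the table.

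The primary granule genes went from the floor to between 14.7 and 97.4 CPM. Mpo (ENSMUSG00000009350, chr11:87793581-87804413 in GRCm38), which encodes the heme enzyme that makes hypochlorous acid, had 3 and 3 counts in the controls against 1684 and 1914 in the tumor libraries, or 0.160 and 0.190 CPM against 97.1 and 97.4 CPM. The 2 tumor libraries were alike and far above both control libraries. The tumor mean was 97.3 ± 0.212 CPM (SD, n = 2), and the ratio to the control counts was 560.5 (95% counting interval 257.3 to 1528, edgeR adjusted p = 7.79e-27). Such intervals cover counting error only.

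Elane (ENSMUSG00000020125, chr10:79886247-79888215), the gene of neutrophil elastase, had 0 counts in both control libraries against 381 and 448 counts in the tumor libraries, which was 22.0 and 22.8 CPM. It was at least 115.7-fold higher in the tumor libraries, computed from the lower tumor value against the higher floor of a control library (edgeR adjusted p = 5.82e-19). Prtn3 (ENSMUSG00000057729, chr10:79874476-79883174), which encodes proteinase 3 and lies 3072 bases from Elane on the same strand, had 1 and 0 counts in the controls against 672 and 750 in the tumor libraries (38.8 and 38.2 CPM). The groups of both genes were wholly separate. The ratio for Prtn3 was 1329 (95% counting interval 238.2 to 52536, edgeR adjusted p = 4.76e-22), and this value rests on 1 control read. The count table places Prtn3 across the opposite-strand gene Plppr3, which had 172 and 132 counts in the controls against 192 and 172 in the tumor libraries, and whether counting used strand is not given in the sources used here.

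Ctsg (ENSMUSG00000040314, chr14:56099881-56102574, minus strand), the gene of cathepsin G, had 1 and 0 counts in the controls against 255 and 318 in the tumor libraries (14.7 and 16.2 CPM). It had the lowest tumor level of the 10 members, yet no tumor library came near a control library. Its ratio was 535.6 (95% counting interval 95.7 to 21191, edgeR adjusted p = 1.77e-17). Leaving out control replicate 1, which held the single read of both genes, turned the ratios into bounds of at least 201.1-fold for Prtn3 and at least 77.5-fold for Ctsg, and leaving out control replicate 2 gave ratios of 721.6 and 290.8.

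Of the 4 secondary granule genes, Ngp stood at 845.3 to 851.6 CPM in the tumor libraries and the rest between 38.0 and 259.9 CPM. Ltf (ENSMUSG00000032496, chr9:111019271-111042767), the gene of the iron-binding protein lactoferrin, had 7 and 5 counts in the controls against 4400 and 5106 in the tumor libraries, or 0.373 and 0.316 CPM against 253.8 and 259.9 CPM. All tumor values exceeded all control values. The log2 difference was 9.50 ± 0.0996 (SE, edgeR adjusted p = 6.08e-32), and the ratio of pooled counts was 740.5 (95% counting interval 423.7 to 1434).

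Ngp (ENSMUSG00000032484, chr9:110419747-110423012), which encodes neutrophilic granule protein, a relative of the cathelicidins and cystatins, had 0 and 2 counts in the controls against 14766 and 16608 in the tumor libraries (851.6 and 845.3 CPM). It was the most abundant member in both tumor libraries and was at or near 0 in both control libraries. The ratio was 14663 (95% counting interval 4059 to 121082, edgeR adjusted p = 1.64e-36). Camp (ENSMUSG00000038357, chr9:109847379-109849617, minus strand), the gene of the cathelicidin precursor, had the same 0 and 2 counts in the controls against 659 and 769 in the tumor libraries (38.0 and 39.1 CPM). Its groups were also separate, with a ratio of 667.4 (95% counting interval 184.4 to 5516, edgeR adjusted p = 1.35e-21). Both control reads of each gene were in control replicate 2. Without that library, the bounds were at least 5289-fold for Ngp and at least 237.8-fold for Camp, and without control replicate 1 the ratios were 6702 and 305.1.

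Lcn2 (ENSMUSG00000026822, chr2:32384633-32388252, minus strand), the gene of lipocalin 2, which binds the iron carriers of bacteria, had 7 and 8 counts in the controls against 2562 and 2985 in the tumor libraries, or 0.373 and 0.506 CPM against 147.8 and 151.9 CPM. The groups did not overlap. Its fitted log2 difference was 8.41 ± 0.117 (SE, edgeR adjusted p = 5.82e-29), and the ratio of pooled counts was 345.7 (95% counting interval 209.4 to 618.0). Camp, Ngp and Ltf share a stretch of 1195389 bases on chromosome 9, where Mmp8 also lies, outside that stretch.

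The 2 tertiary genes were read well above the floor in the control libraries, unlike the other members. Mmp9 (ENSMUSG00000017737, chr2:164940780-164955850), the gene of gelatinase B, had 112 and 91 counts in the controls against 2110 and 2400 in the tumor libraries, or 5.97 and 5.76 CPM against 121.7 and 122.2 CPM. Replicates of a group were close and the groups far apart. The log2 difference was 4.37 ± 0.0782 (SE, edgeR adjusted p = 1.76e-26), and the ratio of pooled counts was 20.8 (95% counting interval 18.0 to 24.0).

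Mmp8 (ENSMUSG00000005800, chr9:7558456-7568485), the gene of neutrophil collagenase, had 714 and 602 counts in the controls against 1204 and 1471 in the tumor libraries, or 38.0 and 38.1 CPM against 69.4 and 74.9 CPM. It was the one member with a substantial level in control AMs, and its tumor libraries still lay above both control libraries. The log2 difference was 0.92 ± 0.0641 (SE, edgeR adjusted p = 7.51e-13), and the ratio of pooled counts was 1.90 (95% counting interval 1.78 to 2.03). Mmp8 made up 84.5% and 84.4% of the reads of all 10 members in the control libraries, but 4.20% and 4.49% in the tumor libraries.

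**Figure D2:**
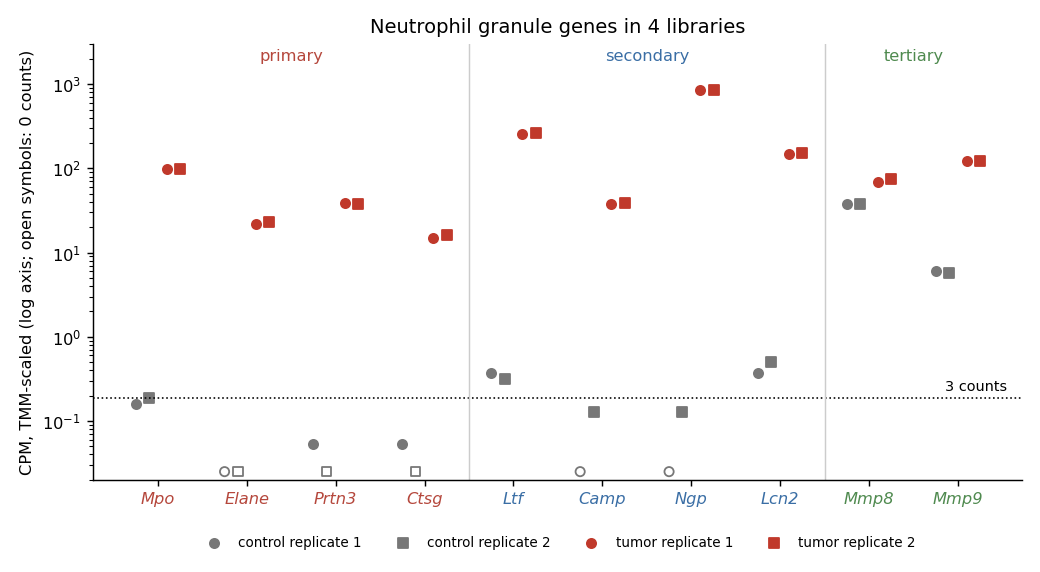
CPM of each of the 10 members in the 2 control and 2 tumor libraries, on a log axis, grouped by granule class. Each point is 1 library, and libraries with 0 counts are drawn at the foot of the axis. The tumor points of all 10 members lie above the control points, with the narrowest gap for Mmp8 (38.0 and 38.1 against 69.4 and 74.9 CPM).

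The 10 members together held 845 and 713 reads in the control libraries and 28693 and 32769 reads in the tumor libraries. As shares of all counts these were 0.00440% (95% exact binomial interval 0.00411 to 0.00471) and 0.00441% (0.00409 to 0.00475) in the control libraries, and 0.169% (0.167 to 0.171) and 0.171% (0.169 to 0.173) in the tumor libraries. The mean share was 38.6 times higher in the tumor libraries, with no overlap. In an exact permutation test, 2 libraries against 2 cannot give a two-sided p below 0.333, which was the value obtained. When control counts were raised to the floor of 3, the median log2 ratio of the class was 7.39 for the primary, 8.98 for the secondary and 2.65 for the tertiary genes, against 0.02 over all tested genes. Both controls of all 4 primary genes were at the floor, so their value is limited by their tumor counts. The fitted medians, which depend on the prior count for such genes, were 9.57, 9.36 and 2.65, so no order of the primary and secondary classes can be read.

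To compare genes with each other, CPM was divided by gene length in kilobases, and class levels below are sums of these CPM per kb values. Length was taken as the file gives it. Prtn3 and Lcn2, as annotated there, begin upstream of their RefSeq starts, so their levels per kb and their places in an order may depend on that annotation. The summed primary level was 0.129 and 0.0554 in the controls against 87.3 and 89.3 in the tumor libraries. The summed secondary level was 0.250 and 0.555 in the controls against 876.9 and 876.6 in the tumor libraries. For the tertiary genes the sums were 17.4 and 17.3 in the controls against 63.0 and 65.4 in the tumor libraries, a ratio of means of 3.70. Each class was higher in both tumor libraries than in both control libraries, with an exact permutation p of 0.333, again the smallest that this design allows.

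With Mmp8 counted as tertiary, the balance between the classes was not the same in the groups. Of the summed level of all 10 members, the tertiary genes held 97.2 ± 0.895% (SD, n = 2) in the control libraries and 6.24 ± 0.145% in the tumor libraries. The secondary genes held 2.25 ± 1.19% in the control libraries and 85.2 ± 0.260% in the tumor libraries. The primary genes held 0.518 ± 0.295% and 8.58 ± 0.115%. The control shares of the primary and secondary genes rest on counts of at most 8 per gene and library. The control balance also rests on where Mmp8 is counted: with Mmp8 placed among the secondary genes, the secondary class held 90.2% in the control and 88.1% in the tumor libraries, and the tertiary class 9.28% and 3.35%. The primary share did not depend on that choice.

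**Figure D3:**
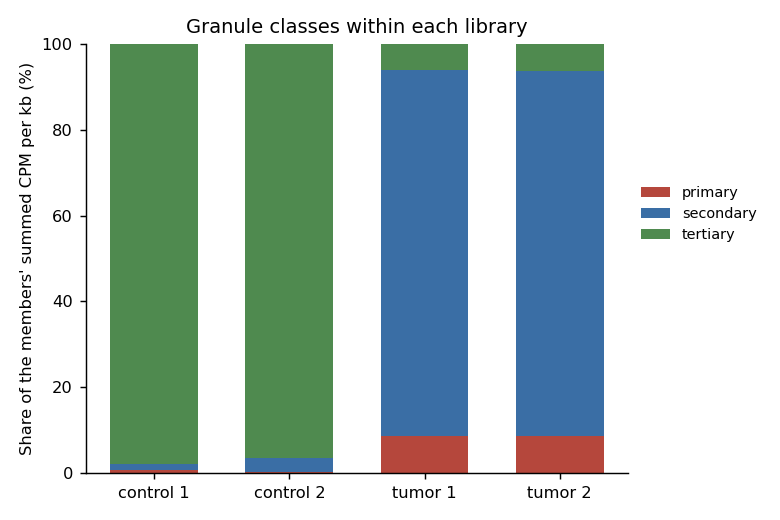
Share, in percent, of the summed CPM per kb of the 10 members held by the primary, secondary and tertiary genes in each of the 4 libraries, with Mmp8 counted as tertiary. The tertiary part fills 97.9% and 96.6% of the control bars, and the secondary part 85.4% and 85.0% of the tumor bars.

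Within the tumor libraries, ratios between the classes were closely repeated. The summed secondary level was 10.04 and 9.81 times the primary level in tumor replicates 1 and 2, and 13.9 and 13.4 times the tertiary level. The primary level was 1.39 and 1.37 times the tertiary level, in sums that set 4 genes against 2. This order turned without division by length. The primary genes then summed to 172.6 and 174.6 CPM, against 191.1 and 197.0 CPM for the tertiary genes. Ngp alone held 79.5% and 78.9% of the secondary level and 67.8% and 67.1% of the level of all members. Without Ngp the secondary level was 2.06 and 2.07 times the primary level. Among the primary genes the level of Mpo was 1.27 and 1.23 times that of Elane.

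In order of level in the tumor libraries, Ngp came first with 694.3 ± 3.63 CPM per kb (SD, n = 2), which placed it at rank 34 of 54532 genes, against rank 18158 in the control libraries. Ltf followed with 74.4 ± 1.26, Lcn2 with 57.1 ± 1.13 and Camp with 50.9 ± 1.06 CPM per kb. On this scale per length, all 4 secondary genes stood above every other member. Mmp9 had 34.5 ± 0.0935, Mmp8 29.8 ± 1.58 and Mpo 28.4 ± 0.0619 CPM per kb. Elane (22.8 ± 0.596), Prtn3 (22.2 ± 0.238) and Ctsg (15.0 ± 1.01 CPM per kb) closed the order, Ctsg at rank 3270. Elane and Prtn3 were the only neighbours in this order whose libraries overlapped.

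In the control libraries the order was different. Mmp8 led with 15.7 ± 0.0153 CPM per kb, at rank 3040, and was followed by Mmp9 with 1.66 ± 0.0417, Lcn2 with 0.168 ± 0.0359 and Ltf with 0.0999 ± 0.0116 CPM per kb. These 4 did not overlap with each other. From Ltf downward (Camp, Ngp, Mpo, Ctsg, Prtn3 and Elane), each gene overlapped with the next, at counts of 7 or fewer. Among genes farther apart, both Ltf libraries lay above those of Mpo, Ctsg, Prtn3 and Elane, and both Mpo libraries above those of Prtn3 and Elane.

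**Figure D4:**
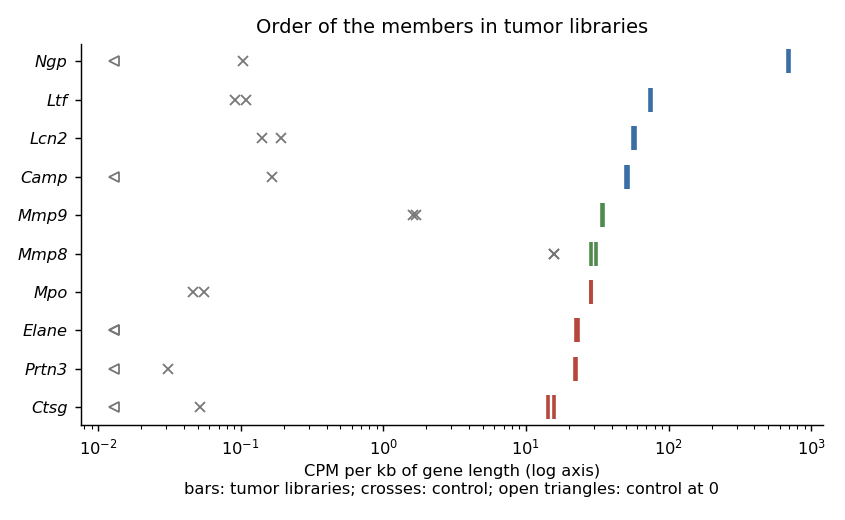
Members ordered by their mean CPM per kb in the tumor libraries, on a log x axis. Bars are the 2 tumor libraries, crosses the 2 control libraries, and open triangles control libraries at 0. Ngp leads at 694.3 CPM per kb, the other secondary genes follow, and Elane and Prtn3 overlap. In the control libraries Mmp8 is highest, at 15.7 CPM per kb.

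The 2 tumor libraries resembled each other in these genes. The ratio of tumor replicate 2 to tumor replicate 1 in CPM lay between 0.985 and 1.10, with a median of 1.03, and was above 1 for 8 of the 10 members. Over the 8238 tested genes whose tumor libraries averaged 200 counts or more, the 5th and 95th percentiles of the same ratio were 0.876 and 1.14.

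Other genes of the granules were counted from lists written for this purpose. Of 4 further primary granule genes, 3 were called higher. Srgn, the proteoglycan serglycin that packs granule proteins, rose from 230.5 ± 0.313 to 928.1 ± 22.0 CPM (log2 difference 2.01 ± 0.026, SE), and Cd63, a granule membrane tetraspanin, from 132.3 to 222.2 CPM (0.75 ± 0.036). Prss57, a serine protease, was absent from the counts of both controls and had 42 and 54 in the tumor libraries, a rise of at least 12.8-fold. The fourth, Bpi, was not tested, with 0, 0, 1 and 3 counts in control replicates 1 and 2 and tumor replicates 1 and 2. The median log2 ratio of the 3 tested genes was 2.01. Srgn and Cd63, which many cell types express, were well read in control AMs.

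Of 9 further secondary granule genes, 5 were called higher, 2 lower and 1 not called. Cd177, a neutrophil surface protein stored in these granules, had 7 and 6 counts in the controls against 1219 and 1488 in the tumor libraries (70.3 and 75.7 CPM), a ratio of 194.6. Olfm4, Hp (also a liver gene), Pglyrp1 and Itgam were the other 4 called higher, named here after their values were seen. Itgam, which encodes CD11b, had 21 and 18 counts in the controls against 2258 and 2618 in the tumor libraries, a log2 difference of 6.86 ± 0.104. Lyz2, the lysozyme gene that macrophages express strongly, fell from 15813 ± 28.4 to 11417 ± 132.2 CPM (log2 difference -0.47 ± 0.012), a direction that turned to 0.11 when the AM identity genes set the scale. Cybb, the large subunit of the phagocyte oxidase, fell from 4217 ± 83.6 to 2601 ± 52.9 CPM (-0.70 ± 0.017). Cyba, its partner subunit, named here after its values were seen, was not called (0.05 ± 0.028, edgeR adjusted p = 0.103), but was called higher with total counts as library sizes (0.12), on the AM identity scale (0.64) and without control replicate 2 (0.08). Ptx3 had 0 counts in all 4 libraries. The 2 genes called lower were thus genes with a high level in control AMs.

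All 3 further tertiary granule genes were called higher, with a median log2 ratio of 6.70. Adam8, a membrane metalloproteinase, rose from 4.57 ± 0.468 to 644.2 ± 15.0 CPM (log2 difference 7.13 ± 0.054), which made it more abundant in CPM than Mmp8 or Mmp9. Mmp25, the leukolysin gene, rose from 0.871 to 90.5 CPM (6.65 ± 0.144, and 7.29 without control replicate 1), and Slc11a1, a metal transporter of phagosomes and granules, from 6.23 to 80.5 CPM (3.68 ± 0.096). Mmp8 therefore had the smallest difference of the tertiary genes examined.

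No gene of the secretory vesicles, the last compartment to form, was called higher on the main scale, while 3 were on the AM identity scale. Of 5, 3 were called lower (Cd14 -0.30 ± 0.021, Fpr2 -0.35 ± 0.026 and Fpr1 -0.69 ± 0.028 on the log2 scale), Anpep was not called (-0.16 ± 0.086, edgeR adjusted p = 0.120), and Alpl, with 0, 0, 3 and 0 counts, was not tested. Control AMs already expressed Cd14 at 1110 ± 4.13 CPM, and Fpr1 and Fpr2 at 414.8 and 507.5 CPM. Fpr1 is named here after its values were seen. With the AM identity genes as the scale, Cd14, Fpr2 and Anpep turned to 0.28, 0.23 and 0.42 and were called higher, and Fpr1 stayed lower at -0.11.

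Of 5 genes that process or restrain the granule proteins, 1 was called higher, 1 lower and 2 not called, against 4 higher and 0 lower on the AM identity scale. Ctsc, the protease that activates the primary granule serine proteases, fell from 1009 ± 7.95 to 732.1 ± 20.6 CPM (log2 difference -0.46 ± 0.022), and turned to 0.12 on the AM identity scale. Serpinb1a, an inhibitor of elastase, proteinase 3 and cathepsin G, was called higher by 0.11 ± 0.038 (edgeR adjusted p = 0.0136), but not without control replicate 2 (0.221), without tumor replicate 1 (0.126), without a filter on low counts (0.0728) or in the DESeq2 test (0.108), among adjusted p-values that ran as low as 8.44e-15. It is named here after its values were seen. Slpi, another elastase inhibitor, was not called (-0.01 ± 0.034, edgeR adjusted p = 0.873, with a sign that differed between scales), nor was Timp2 (0.09 ± 0.046, edgeR adjusted p = 0.0983). Both were called higher on the AM identity scale (0.57 and 0.67), and Timp2 also with total counts as library sizes (0.16). Timp1, an inhibitor of matrix metalloproteinases such as Mmp9, was not tested, with 14 and 7 counts in the controls against 2 and 0 in the tumor libraries. It was called lower without a filter on low counts (edgeR adjusted p = 0.00514), and the number of these genes called lower went from 1 to 2 in that setting, without control replicate 2 and without tumor replicate 1.

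Of 4 receptors for granule proteins, 3 were called lower, against 1 lower and 2 higher on the AM identity scale. These were Lrp1, which takes up lactoferrin and protease-inhibitor complexes (4117 ± 52.2 to 2644 ± 37.1 CPM, log2 difference -0.64 ± 0.016), Slc22a17, a receptor for lipocalin 2 (-0.31 ± 0.088, 0.27 on the AM identity scale), and Fpr2, which binds the cathelicidin peptide. F2rl1, a receptor cleaved by these proteases, had 0 counts in the controls against 4 and 3 in the tumor libraries.

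Of 8 transcription factors that govern granule genes, 5 were called higher, 1 lower and 1 not called, with a median log2 ratio of 0.34. Cebpe, the factor required for secondary granule genes, had 7 and 1 counts in the controls against 470 and 521 in the tumor libraries, with both tumor libraries far above both controls. Its log2 difference was 6.81 ± 0.246 (edgeR adjusted p = 2.70e-19), and 8.56 without control replicate 1 or 6.12 without control replicate 2. Cebpe, Cebpd, Spi1 and Runx1 are named here after their values were seen. Myb, a factor of early precursors that supports primary granule genes, had 3 and 6 counts in the controls against 116 and 144 in the tumor libraries (4.71 ± 0.336, and 5.38 without control replicate 2). Cebpe and Myb were tested only because of their tumor counts, so their calls add no support beyond those counts. Cebpa and Cebpb, both well expressed in control AMs, differed by 0.34 ± 0.026 and 0.33 ± 0.025, and Cebpd, also called higher, by 0.99 ± 0.097. Spi1, which encodes PU.1, was lower by a small amount (-0.13 ± 0.026, 0.45 on the AM identity scale). Runx1 was not called (0.03 ± 0.027, edgeR adjusted p = 0.309), but was called higher with total counts as library sizes (0.10) and on the AM identity scale (0.61). Gfi1, with 6, 0, 13 and 10 counts, was not tested.

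Of 7 genes listed for neutrophil precursors, not all of which are specific to these cells, 5 were called higher, 1 lower and 1 not called. All 5 needed their tumor counts to pass the filter on low counts. With at least 10 counts required in every library, 0 genes of the list were called higher. Ms4a3 and Fcnb, genes of granulocyte precursors named here after their values were seen, had 0 counts in both control libraries, with 155 and 157 counts of Ms4a3 (at least 42.1-fold higher) and 197 and 197 of Fcnb (at least 52.8-fold higher) in the tumor libraries. Kit, also named after its values were seen and shared with mast cells, had 9 and 10 counts against 823 and 887. Flt3 had 9 and 5 counts against 63 and 90, and Cd34 had 4 and 1 against 36 and 66, a log2 difference of 4.18 ± 0.530 that became 5.27 without control replicate 1. The proliferation genes on the list were not called higher on the main scale, but both were on the AM identity scale. Mki67 fell from 134.8 to 106.9 CPM (-0.33 ± 0.041, 0.25 on the AM identity scale), and Top2a was not called (0.08 ± 0.060, edgeR adjusted p = 0.280), with 0.66 on the AM identity scale and a call at 0.15 with total counts as library sizes.

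All 9 genes of the mature neutrophil list were called higher, with a median log2 ratio of 7.04 and a summed level of 132.9 and 132.8 CPM in the controls against 4231 and 4200 CPM in the tumor libraries. With a filter of at least 10 counts in every library, 6 of the list were called higher. S100a9, a calcium-binding protein that fills the cytosol of neutrophils, had 12 and 11 counts in the controls against 19073 and 20990 in the tumor libraries, with no overlap. Its level per length in the tumor libraries was 3.02 and 2.96 times that of Ngp and 24.1 and 22.9 times that of the 4 primary genes together. Mxd1, a transcriptional repressor of late myeloid cells that was also read in control AMs, rose from 57.9 to 896.7 CPM. Ly6g, the gene of the surface protein by which mouse neutrophils are sorted, had 0 and 1 counts in the controls against 284 and 331 in the tumor libraries, and Stfa2l1 had 0 and 0 against 542 and 745.

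**Figure D5:**
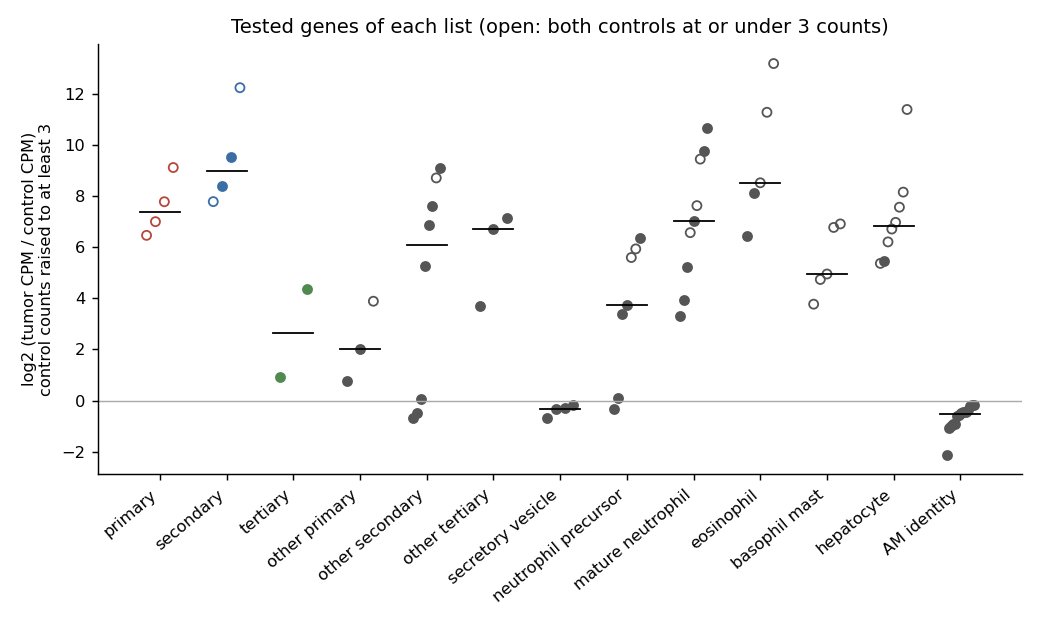
Log2 ratio of tumor to control CPM for the tested genes of the granule lists and of 6 marker lists, with control counts raised to the floor of 3. Each point is 1 gene, open where both controls had 3 counts or fewer, and lines are medians. Open points are limited by the floor. The secondary members have a median of 8.98 and the tertiary members 2.65, the mature neutrophil list 7.04, and the secretory vesicle list -0.32.

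Markers of other cell types also moved with the granule genes, and their part in these results was not tested. Over all tested genes, 29.0% were called higher. With a filter of at least 10 counts in every library, 0 eosinophil, 0 basophil and mast cell and 0 hepatocyte genes were called higher. The genes of these 3 lists called higher below needed their tumor counts to be tested, so their calls add little to the counts themselves. All 5 eosinophil genes were called higher, with a summed level of 0.480 and 0.506 CPM in the controls against 2221 and 2201 CPM in the tumor libraries. Prg2, the major basic protein of eosinophil granules, had 1 and 1 counts in the controls against 28344 and 32089 in the tumor libraries, and Epx, the eosinophil peroxidase, 1 and 1 against 7699 and 8386. The lowest of the list, Ccr3 and Il5ra, had 2 and 4 and 5 and 2 counts in the controls against 996 and 1137 and 337 and 401. The basophil and mast cell list had 5 of 8 genes called higher, and its sum went from 0.266 and 0.380 to 55.8 and 50.6 CPM. Mcpt8, a basophil protease, had 0 and 0 counts against 346 and 360, and Gata2, a factor of basophils, mast cells and their precursors, 3 and 3 against 395 and 380. The mast cell proteases Cma1 (0, 0, 7 and 5, named after its values were seen), Tpsb2 (0, 1, 0 and 4) and Mcpt4 (0, 0, 4 and 0) stayed at 7 counts or fewer throughout and were not tested, and Cma1 was called higher without a filter on low counts (edgeR adjusted p = 0.0255), which made 6 of the 8. All 8 hepatocyte genes were called higher, with sums of 0.586 and 1.14 CPM in the controls against 644.7 and 641.6 CPM in the tumor libraries, led by Alb (0 and 0 counts against 8036 and 9358) and Apoa1 (1 and 3 against 908 and 933), with Apoh (1 and 1 against 218 and 261) and Serpina1c (0 and 0 against 133 and 133) the lowest.

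For monocytes, 3 of 4 genes were called higher (Ccr2, F13a1 and Ly6c2) and Vcan was not (0.19 ± 0.253), although it was called higher on the AM identity scale (0.77) and without tumor replicate 2 (0.57). The sum was 16.3 and 15.1 CPM in the controls against 30.9 and 30.1 CPM in the tumor libraries. The call of Ly6c2, with 2, 7, 14 and 41 counts, was lost without tumor replicate 2 (edgeR adjusted p = 0.114). Of 5 erythroid genes, 2 were called higher (Hbb-bs and Hba-a1), 4 without a filter on low counts and 3 in 3 of the 4 settings that left out a library, and the sum of the list was 0.693 and 1.14 CPM in the controls against 13.2 and 13.7 CPM in the tumor libraries. The 4 genes of B cell precursors, which share the bone marrow with granulocyte precursors, had at most 5 counts in any library, Igll1 had none, and no gene of that list was tested.

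The counts above depend in part on the scale. When the AM identity genes set it, the median log2 difference of all tested genes went from 0.02 to 0.60, and the share of calls that were higher went from 53.9% (4136 higher, 3535 lower) to 95.1% (10658 higher, 547 lower). All 10 members remained higher on both scales. This could hardly have come out otherwise, since the AM identity scale raised the differences of all members. For 8 of them the controls also had under 10 counts in both libraries. Mmp8 was at 0.92 against a median of 0.02 on the main scale, and at 1.50 against 0.60 on the AM identity scale.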

How the data were processed

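Total RNA of AMs was extracted with TRIzol and sequenced as paired-end libraries on an Illumina HiSeq instrument. According to the study's methods and the submitters' processing notes, the authors aligned reads with HISAT2 2.0.5 and counted them per gene with featureCounts. The deposited values used here are whole-number counts per gene without normalization, beside which the file gives a gene length. The genome build, annotation, strand setting and handling of multi-mapped reads are not given in the sources used here. Coordinates of all 10 members were identical to those of GENCODE release M21 (GRCm38), and 98.3% of the 54409 identifiers found there matched.

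Groups were taken from the titles in the labels. Genes were filtered with filterByExpr (minimum count 10, 14256 genes kept) and tested with edgeR 4.0.16 in R 4.3.3, with TMM scaling, group as the single term, 2 residual degrees of freedom and Benjamini-Hochberg adjustment over all genes tested. The submitters' processing notes name DESeq2 with no role, and the methods describe no test for these data. CPM is the count over the TMM-scaled library size. SE is the log2 difference over the square root of the F statistic. Ratios are of pooled counts over pooled scaled library sizes, with exact intervals from the binomial distribution, and bounds ("at least") use a floor of 3 counts per library. Class tests were two-sided exact permutation tests. The test was checked on simulated counts. Replicates were not the same set of reads deposited more than once or divided at random, since their counts differed by more than sampling noise (chi-square per gene 1.86 over 13021 genes for the control and 2.34 over 14317 genes for the tumor libraries). These values cannot tell separate libraries from repeated sequencing of the same library.

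The members and lists were chosen with earlier results of these data known. Named were all members and, from each other list, at most the 2 highest and 2 lowest genes by mean tumor CPM or all genes of a list of 4 or fewer; others are marked as named after their values were seen. No gene was named for likeness to the members, since 4 libraries cannot rank it. Alternatives were DESeq2 1.42.0 size factors and its Wald test, total counts as library sizes, scaling on the AM identity list, other filters, a replicate block, levels without division by length, classes without their highest member, and leaving out each library. Counting Mmp8 as a secondary granule gene was added after seeing the data.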

Additional observations from a re-analysis of the deposited data

How the results depend on the processing

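Of the members, 10 were called higher in each alternative other than the filter of at least 10 counts in every library. For the 8 members that were tested only because of their tumor counts this says nothing about stability. That filter removed 8 members before testing and left 2 called higher (0 primary, 0 secondary), with 20 other list genes higher in place of 54. Scaling on the AM identity list left 8 other list genes lower in place of 24. The tumor class shares moved with their definition. Without division by length, the primary, secondary and tertiary genes held 10.4%, 77.9% and 11.7%, and without the highest member of each class (Mpo, Ngp and Mmp9) 22.0%, 67.1% and 10.9%. With Mmp8 counted as a secondary granule gene, the secondary and tertiary shares were 88.1% and 3.35% in the tumor and 90.2% and 9.28% in the control libraries. Leaving out 1 library, with the lone library of its group assumed to vary like the other group, changed no count of members. Same-numbered libraries share only a number (correlation of their deviations -0.00278 across 14256 genes). Under the replicate block, 10 members were called higher, and 4021 genes were higher and 3425 lower in place of 4136 and 3535. At 16167147 to 19205737 counts per library, a gene at 0 counts could still lie at up to 0.190 CPM.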
